A study of Mus musculus with 156 samples.

Results

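Gene expression in the brain was compared between male mice of 24 and 2 months. The comparison takes every brain library of these ages by its label, 10 mice of 24 months and 10 of 2 months, and these are 20 of the 156 libraries of the series and 20 of its 52 brain libraries. All of these mice were of C57BL/6J/Ukj, an in-house line derived from the inbred strain C57BL/6J, were kept for ageing without a treatment, and gave RNA from the left brain hemisphere. All 20 libraries were sequenced in Run 2, so that the run is the same at both ages, whereas most brain libraries of 9 and 30 months and all of those of 15 months are in Run 1. The study asked how the exchange of metabolites between the host and its gut microbes changes with age. The methods describe no perfusion before the tissue was taken, and mice of an age could share a cage. The hemisphere is a mixture of cells, so that fewer cells of a type and less RNA per cell cannot be told apart here.

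The brain holds neurons, astrocytes that supply and buffer them, oligodendrocytes that wrap axons in myelin and renew from precursor cells, and microglia, the resident macrophages. In old rodent brains, microglia and astrocytes are known to take on reactive states with higher complement, lysosomal and antigen presentation genes, while the formation of neurons and oligodendrocytes from their precursors slows. Interferons are cytokines that switch on antiviral genes and MHC class I genes through transcription factors that bind an element in the promoters of many of these genes.

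Depth was 26747554 to 38156262 gene counts at 2 months and 24254062 to 38974495 at 24 months. Levels are given as CPM, counts scaled to library size with TMM factors, and changes as the log2 ratio of 24 over 2 months ± its standard error. A gene is said to have risen or fallen where the adjusted p of edgeR's quasi-likelihood test, over all genes tested, was at most 0.05. Libraries correlated with each other across genes at 0.983 to 0.995, and the leading principal component, with 24.8% of the variance, placed every library of 2 months (-20.4 to -10.2) apart from every library of 24 months (4.32 to 31.4). Snap25, a neuronal vesicle fusion gene, lay between 1758 and 2331 CPM in all 20 libraries, the Y-linked Ddx3y at 25.1 CPM or more, and Xist, which is expressed from an inactive X chromosome, at 0.202 CPM or less.

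Some libraries stood apart in genes of other cells. The summed level of 20 genes of neutrophils and their marrow precursors was 12.4 to 55.9 CPM at 2 months and 17.3 to 696 CPM at 24 months, and the highest values were those of 24 months replicate 1 and, at 2 months, of replicate 5. The summed level of red cell genes ran from 72.6 to 209 CPM at 2 months, again highest in replicate 5. At 24 months it ran from 67.0 to 900 CPM, where replicates 3, 1, 10 and 8 held 900, 554, 331 and 213 CPM. Gabra6, a gene of cerebellar granule cells, was at 0.534 CPM or less at 2 months and reached 3.95, 3.01, 1.44 and 0.848 CPM in 24 months replicates 1, 10, 5 and 7. The part of these differences in the age results was not tested, and counts without some of these libraries are given beside those they change most. The 4 libraries high in red cell genes left out below were 2 months replicate 5 and 24 months replicates 1, 3 and 10. Replicate 8 of 24 months was kept in that fit.

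Of 17968 genes tested, 4509 (25.1%) changed between 2 and 24 months, of which 2320 (12.9%) were higher and 2189 (12.2%) lower at 24 months. Most of these changes were small. The median size of a change among the called genes was 0.21 on the log2 scale, 154 genes rose and 16 fell by more than 1, and 642 rose and 112 fell by more than 0.5. The levels of the 2 ages did not overlap for 408 genes (2.27%), 279 higher (1.55%) and 129 lower (0.718%). Counts of list members below are to be read beside the 12.9%, 12.2% and 2.27% of all genes. With library totals in place of TMM factors, 2703 genes were called higher and 1672 lower, so that the share of higher calls moved from 51.5% to 61.8%, while the median change of all genes moved only from -0.0026 to 0.016. Leaving out 24 months replicate 1 left 4103 calls, of which 3870 (85.8% of the original calls) had been called in the same direction with it. When the summed level of the neutrophil genes was added to the fit as a covariate, 2779 genes were called.

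**Figure D1:**
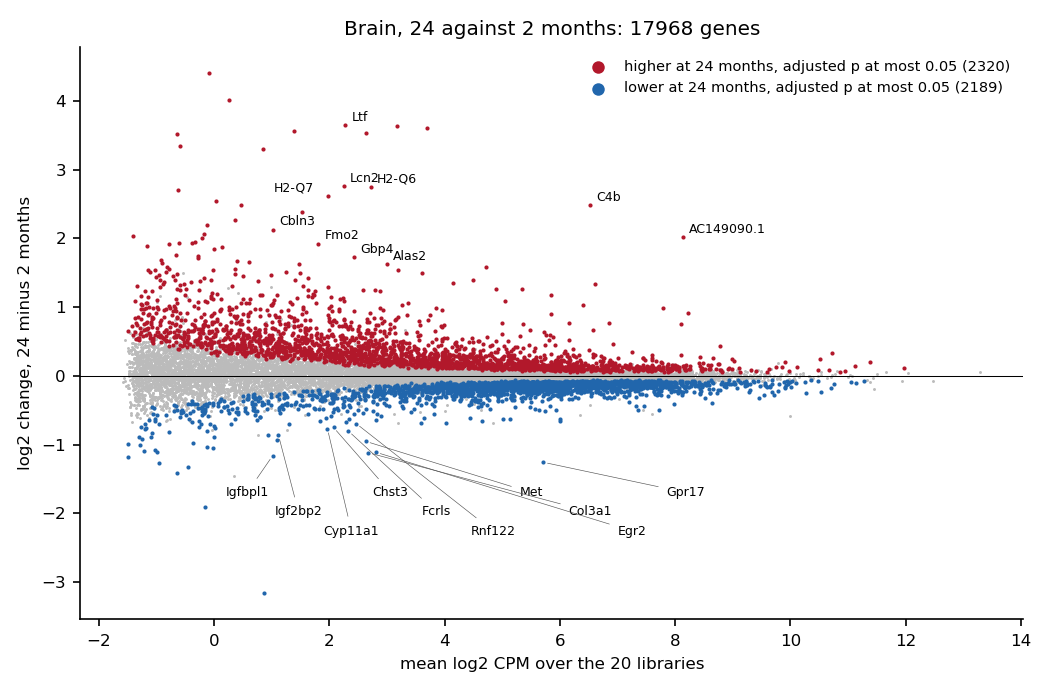
Each point is 1 of the 17968 genes tested, with its mean log2 CPM over the 20 libraries on the x axis and the log2 change of 24 over 2 months on the y axis; red and blue points passed an adjusted p of 0.05. The 154 rises of more than 1 far outnumber the 16 falls of that size, and most called genes lie close to 0.

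The protein-coding genes with the largest rises among those with a mean log2 CPM of at least 1 were led by genes of marrow cells and of immunity. Ltf, which codes for the iron-binding granule protein lactoferrin, was listed between 0 and 3.91 CPM at 2 months (median 0.136) and between 0.315 and 59.0 CPM at 24 months (median 1.39), and it rose by 3.65 ± 0.97, but its ages overlapped and its change was 2.21 without 24 months replicate 1. Lcn2, an iron-siderophore binding protein of neutrophils and reactive astrocytes, lay at 0.159, 1.11 and 2.50 CPM (lowest, median and highest) at 2 months, and at 24 months its median was 4.56 and its highest value 29.2 CPM (2.76 ± 0.56). The class I genes H2-Q6 and H2-Q7 and the complement gene C4b, described with their groups, rose by more than 2.4 with no overlap between ages.

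AC149090.1, a gene model on the unplaced scaffold JH584304.1 (52190 to 59690), had 87.2, 106 and 148 CPM at 2 months and 331, 434 and 567 CPM at 24 months. Its rise of 2.02 ± 0.09 was among the 10 smallest p of all protein-coding genes (adjusted p = 1.5e-13), and no library of 24 months came near the range of 2 months. Fmo2, a flavin-containing monooxygenase, rose from a median of 1.34 to 4.79 CPM (1.93 ± 0.17) without overlap, and Gbp4, an interferon-induced GTPase, from 2.36 to 5.22 CPM (1.73 ± 0.33). Gbp4 reached 32.3 CPM in 24 months replicate 10 alone, and its change was 1.13 without that library. Cbln3, a gene of cerebellar granule cells (2.13 ± 0.55), and Alas2, which makes heme in red cell precursors (1.63 ± 0.44), complete this list of 10, and both overlapped between ages. Without the 4 libraries highest in Gabra6 the change of Cbln3 was 0.20 and no longer passed (adjusted p = 0.75), and without 4 libraries high in red cell genes that of Alas2 was 0.51.

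The largest falls were of genes of oligodendrocyte maturation, new neurons, connective tissue and signalling. Gpr17, a receptor that marks oligodendrocyte precursors on their way to myelination, had 63.8, 67.9 and 103 CPM at 2 months and 24.1, 27.1 and 44.1 CPM at 24 months, with no overlap and a fall of 1.26 ± 0.11 on the log2 scale. Igfbpl1, expressed in newly formed neurons, went from a median of 2.63 to 1.13 CPM (-1.17 ± 0.10), and Col3a1, the fibrillar collagen III chain (chromosome 1, 45311538 to 45349706), from 8.33 to 3.97 CPM (-1.12 ± 0.09). Egr2, an immediate early transcription factor, changed by -1.11 ± 0.29 with overlap. Met, the receptor of hepatocyte growth factor (chromosome 6, 17463800 to 17573980), had 6.42, 7.95 and 9.15 CPM at 2 months and 3.70, 4.13 and 4.61 CPM at 24 months (-0.96 ± 0.06). Igf2bp2 (an RNA-binding protein, -0.86), Fcrls (a microglial Fc receptor-like gene, -0.80), Cyp11a1 (the side-chain cleavage enzyme that starts steroid synthesis, -0.77), Chst3 (a chondroitin sulfotransferase, -0.75) and Rnf122 (a ubiquitin ligase, -0.70) followed, all 5 without overlap between the ages.

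**Figure D2:**
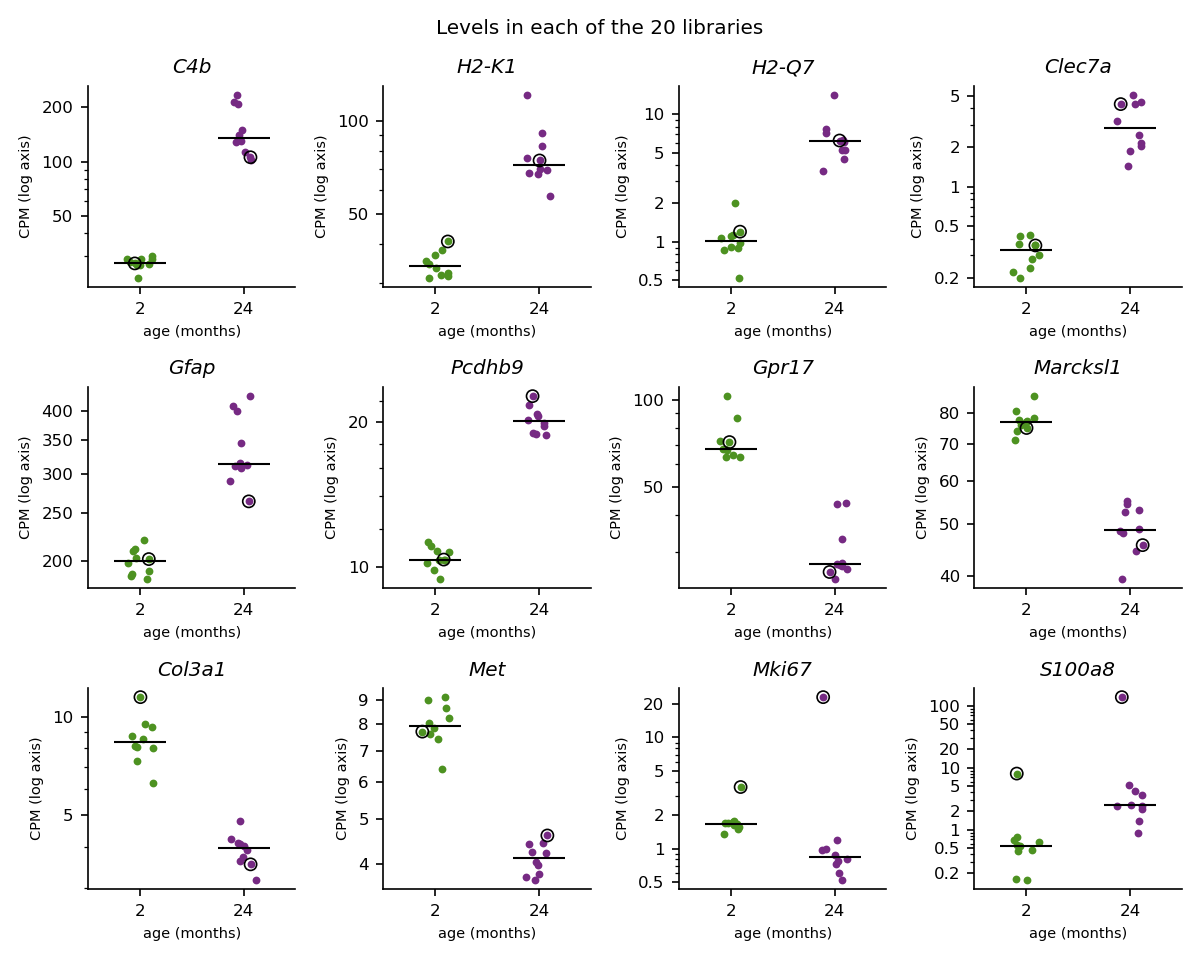
CPM (log axis) of 12 genes in each of the 20 libraries, by age in months; a line marks each median, and open rings mark 24 months replicate 1 and 2 months replicate 5, the libraries highest in neutrophil genes at each age. The ages do not overlap for the other 10 genes, whereas in Mki67 and S100a8 the ringed libraries stand above all others of their age.

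Genes of MHC class I, which displays peptides of the cell's own proteins to T cells, rose together. Of 21 tested members 17 rose, 1 fell and 3 did not pass, against 12.9% and 12.2% of all genes, and the median change was 0.75 against -0.0026 over all genes. The levels of the ages did not overlap for 12 of the 21, against 2.27% of all genes. Among the heavy chains, H2-K1 (chromosome 17, 33996017 to 34000347) had 31.1, 34.1 and 40.9 CPM at 2 months and 57.4, 72.4 and 122 CPM at 24 months (1.17 ± 0.10), and H2-D1 had 50.4, 53.7 and 59.3 CPM against 86.9, 107 and 158 CPM (1.04 ± 0.09). For both, the lowest library of 24 months lay above the highest of 2 months. The non-classical H2-Q7 rose from 0.523 to 2.02 CPM, with a median of 1.03, to 3.58 to 14.1 CPM, with a median of 6.15 (2.62 ± 0.22), and H2-Q6 from a median of 1.55 to 10.6 CPM (2.76 ± 0.23). These class I genes are near-identical in sequence, and reads can be split or dropped among them.

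The light chain and the machinery that loads the molecules rose as well. B2m, the light chain of every class I molecule, had 79.3, 81.7 and 94.1 CPM at 2 months and 122, 138 and 196 CPM at 24 months (0.77 ± 0.07, no overlap). Tap1, a subunit of the peptide transporter, rose by 1.25 ± 0.15, Psmb8 and Psmb9, the catalytic subunits of the immunoproteasome, by 1.26 ± 0.13 and 1.24 ± 0.20, and Nlrc5, the transactivator of class I genes, by 1.50 ± 0.15. Calr, a chaperone of the endoplasmic reticulum that also folds other proteins, was the member that fell (-0.20 ± 0.07), and it did not pass without 24 months replicate 1 (adjusted p = 0.059). Tap1, Psmb9, Nlrc5, H2-K1, H2-Q6 and H2-Q7 were highest in 24 months replicate 10, and without that library 16 of the 21 rose.

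Of 46 tested interferon response genes 39 rose and none fell by this test, with a median change of 0.64, and 45 of the 46 changes lay above 0. Their summed level was 265, 301 and 348 CPM at 2 months and 344, 407 and 575 CPM at 24 months, and the ranges met only at 344 and 348 CPM. Ifi27, an interferon-induced mitochondrial protein, had 27.9, 31.5 and 34.2 CPM at 2 months and 38.7, 46.7 and 54.7 CPM at 24 months (0.58 ± 0.06). Lgals3bp, a secreted galectin-binding protein, rose from a median of 22.8 to 38.1 CPM (0.77 ± 0.08) and Xaf1, a pro-apoptotic zinc finger protein, from 6.32 to 10.1 CPM (0.71 ± 0.08), both without overlap. The largest rises were in members of low level, among them Oas3 (1.51 ± 0.41), which makes the second messenger that activates RNase L, and the nucleic acid sensors Zbp1 (1.42 ± 0.31) and Ifi204 (1.21 ± 0.20). The transcription factor Stat2 rose less, by 0.17 ± 0.05. Cxcl10, a chemokine, changed by 0.82 ± 0.32 and did not pass (adjusted p = 0.066). Replicate 10 of 24 months held the highest summed level, and without it 37 members rose; without the 4 libraries highest in Gabra6, of which it is 1, 28 rose.

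The promoters of the called genes of these 2 lists with the smallest p that hold an interferon-stimulated response element are shown, since interferon is known to act through this element. It was searched as GAAANNGAAA on both strands from 250 bases before to 50 bases after the RefSeq start (build GRCm38.p6), and capitals mark it, or its reverse complement, in the sequences. B2m lies at chr2:122147437-122147736 on the plus strand, and H2-T22, a non-classical class I gene (0.51 ± 0.06), at chr17:36042693-36042992 on the minus strand. Ifih1, which codes for the RNA sensor MDA5 (0.50 ± 0.07), lies at chr2:62646206-62646505 and Trim30a, a tripartite motif gene induced by interferon (0.72 ± 0.10), at chr7:104465144-104465443, both on the minus strand.
B2m: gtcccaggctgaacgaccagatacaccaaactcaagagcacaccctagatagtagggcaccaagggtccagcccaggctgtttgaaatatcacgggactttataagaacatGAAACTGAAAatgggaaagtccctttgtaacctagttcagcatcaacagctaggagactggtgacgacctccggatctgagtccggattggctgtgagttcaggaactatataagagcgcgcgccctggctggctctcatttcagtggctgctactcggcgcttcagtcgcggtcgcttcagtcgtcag
H2-T22: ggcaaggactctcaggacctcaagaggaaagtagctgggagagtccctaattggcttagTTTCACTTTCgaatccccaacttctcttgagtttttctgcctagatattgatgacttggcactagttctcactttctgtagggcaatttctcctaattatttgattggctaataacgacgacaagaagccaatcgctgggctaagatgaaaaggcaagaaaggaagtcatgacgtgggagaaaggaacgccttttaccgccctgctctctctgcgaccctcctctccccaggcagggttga
Ifih1: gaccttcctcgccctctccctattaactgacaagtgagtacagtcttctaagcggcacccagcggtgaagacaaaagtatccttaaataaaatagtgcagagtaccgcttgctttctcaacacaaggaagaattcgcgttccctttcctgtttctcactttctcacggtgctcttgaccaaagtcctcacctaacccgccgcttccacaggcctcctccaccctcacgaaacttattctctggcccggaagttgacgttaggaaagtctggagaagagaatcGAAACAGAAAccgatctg
Trim30a: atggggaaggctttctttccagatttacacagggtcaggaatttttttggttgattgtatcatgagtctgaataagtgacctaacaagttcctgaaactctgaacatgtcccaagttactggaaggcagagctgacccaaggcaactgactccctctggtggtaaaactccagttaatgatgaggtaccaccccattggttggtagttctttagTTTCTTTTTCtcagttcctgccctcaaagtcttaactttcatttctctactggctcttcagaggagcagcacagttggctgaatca

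The element begins at position -139 of B2m, -191 of H2-T22, 33 of Ifih1 and -36 of Trim30a, counted from the start site. It was found in 19 of the 27 risen interferon genes with a promoter in the RefSeq table (70.4%) and in 4 of the 14 risen class I genes (28.6%), beside 466 of the 12739 tested genes with a promoter there (3.66%) and 3.44% of all 32851 promoter windows. Among all tested members with a promoter there, risen or not, 22 of 33 interferon genes (66.7%) and 4 of 18 class I genes (22.2%) held it. These shares describe the lists as chosen, and whether the element goes with the rise was not tested. A match describes the letters of a window and shows no binding.

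**Figure D3:**
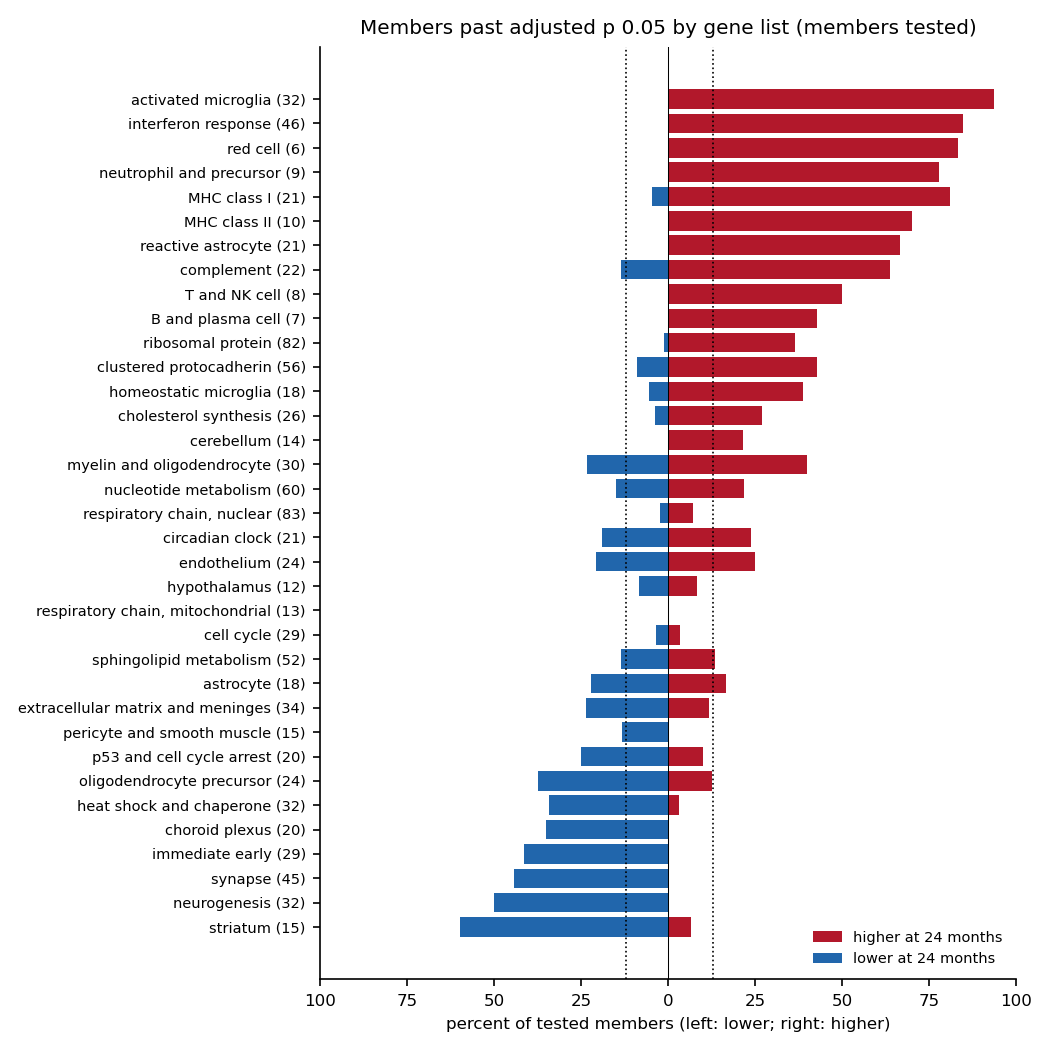
For each gene list (number of members tested in brackets), bars show the percent of tested members that rose (red, to the right) or fell (blue, to the left) at an adjusted p of 0.05; dotted lines mark the 12.9% and 12.2% of all genes. The lists of interferon, MHC, complement, activated microglial and reactive astrocyte genes lie to the right and the lists of striatum, neurogenesis, synapse and immediate early genes to the left.

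Complement tags debris and synapses for removal by microglia. Of 22 tested members 14 rose and 3 fell, with a median change of 0.34, and without 4 libraries high in red cell genes 9 rose and 1 fell. Without 2 months replicate 5 alone 12 rose and 1 fell. C4b, the central component C4 (chromosome 17, 34728380 to 34743882), had 22.5, 27.4 and 30.0 CPM at 2 months and 102, 136 and 234 CPM at 24 months, a rise of 2.48 ± 0.14 (adjusted p = 5.8e-12), and its lowest library of 24 months stood more than 3 times above the highest of 2 months. The near-identical C4a, at 1.77 to 4.11 CPM, changed by 0.07 ± 0.14 and did not pass, and reads shared by the pair may have been dropped. C1qa, of the recognition molecule, had 39.4, 45.1 and 49.7 CPM against 57.3, 60.8 and 84.1 CPM (0.59 ± 0.07), and C1qb and C1qc rose by 0.45 each. C3, on which the pathways converge, rose from a median of 2.01 to 8.72 CPM (1.24 ± 0.40, adjusted p = 0.025), but 2 months replicate 3 held 17.0 CPM, and the change did not pass without the library highest in neutrophil genes at each age (1.03, adjusted p = 0.079).

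Among receptors, Itgb2, the shared chain of the complement receptors CR3 and CR4, rose by 0.86 ± 0.10 and C3ar1, the receptor of the fragment C3a, by 0.93 ± 0.11, both without overlap. Of the inhibitors, Cd55, which breaks up the C3 convertase on cells, fell from 5.79, 6.14 and 6.99 CPM to 3.86, 4.85 and 5.39 CPM (-0.39 ± 0.06, no overlap). 

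Microglial genes of both states moved up, those of the activated state by more. Of 32 tested genes of activated microglia 30 rose and none fell by this test, with a median of 0.59. Of 18 homeostatic microglial genes 7 rose, 1 fell and 10 did not pass, against 12.9% and 12.2% of all genes, with a median of 0.12. Of these 18 changes 16 lay above 0, and the ages did not overlap for 4 genes, against 2.27% of all genes. Clec7a, the beta-glucan receptor dectin-1 (chromosome 6, 129461591 to 129472779), had 0.201, 0.327 and 0.431 CPM at 2 months and 1.45, 2.83 and 5.03 CPM at 24 months (3.30 ± 0.24), and Cst7, a cystatin of activated microglia, 0.0310, 0.0615 and 0.191 CPM against 0.483, 0.852 and 2.38 CPM (3.51 ± 0.36). Both were near the limit of detection at 2 months and did not overlap between ages. Itgax (CD11c) rose by 2.49 ± 0.27, Lgals3 (galectin-3) by 1.39 ± 0.24 and Cybb, the catalytic subunit of the phagocyte NADPH oxidase, by 1.62 ± 0.31, or by 1.25 without 24 months replicate 1.

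The more abundant members had smaller changes. The lysosomal protease Ctss went from 66.2, 73.3 and 78.4 CPM to 103, 108 and 137 CPM (0.66 ± 0.05), Trem2, a lipid-sensing receptor, from a median of 12.3 to 17.3 CPM (0.55 ± 0.06), its adaptor Tyrobp from 16.1 to 22 CPM (0.54 ± 0.07) and Apoe, the main lipid carrier of the brain, from 1350 to 1558 CPM (0.24 ± 0.04), all 4 without overlap. Lpl (-0.05 ± 0.06) and Igf1 were the members that did not pass. Of the homeostatic genes, Csf1r, the receptor on which microglial survival depends, was at 105 and 106 CPM in the medians (0.01 ± 0.03), and P2ry12 (0.05 ± 0.08) and Tmem119 (0.04 ± 0.05) did not pass, while Aif1 rose by 0.43 ± 0.07 and Cx3cr1, the fractalkine receptor, by 0.25 ± 0.05. Fcrls fell from 5.46, 6.14 and 7.47 CPM to 2.90, 3.59 and 3.97 CPM. Without 24 months replicate 1, 30 activated genes rose, and 8 homeostatic genes rose and 1 fell. Mpeg1, a pore-forming protein of phagocytes that is in neither list, was among the 10 genes with the smallest p, with 27.2, 29.7 and 32.9 CPM against 44.6, 48.0 and 59.8 CPM (0.75 ± 0.05), as was Ly9, a receptor of the SLAM family on leukocytes, with medians of 0.407 and 1.94 CPM (2.26 ± 0.15).

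Genes of reactive astrocytes rose in 14 of 21 tested members, with none falling by this test and a median of 0.57, and in 9 without the 4 libraries highest in Gabra6. Gfap, the intermediate filament of astrocytes (chromosome 11, 102887336 to 102900912), had 184, 200 and 221 CPM at 2 months and 264, 313 and 429 CPM at 24 months (0.76 ± 0.07), and Serpina3n, a secreted protease inhibitor, 15.1, 17.2 and 18.2 CPM against 25.8, 33.6 and 73.9 CPM (1.27 ± 0.17). Neither overlapped. Vim, another intermediate filament, rose by 0.57 ± 0.08 and Ggta1, a galactosyltransferase, by 0.74 ± 0.10. Of 18 genes that mark astrocytes in general, 3 rose and 4 fell, against 12.9% and 12.2% of all genes, with a median of 0.02. S100b, a calcium-binding protein, rose by 0.35 ± 0.04, the potassium channel Kcnj10, the gap junction protein Gja1 and the water channel Aqp4 fell by 0.24, 0.16 and 0.23, and the glutamate transporter Slc1a2 changed by 0.01 ± 0.03.

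MHC class II genes, used by microglia, border macrophages and B cells to present antigen, rose in 7 of 10 tested members (median 0.65), with wider spread than class I. H2-DMb1, which edits class II peptides, had 1.30, 1.48 and 1.67 CPM against 2.00, 2.59 and 3.76 CPM (0.85 ± 0.11, no overlap). Cd74, the invariant chain, had 8.05, 10.7 and 18.4 CPM against 11, 19.0 and 31.2 CPM (0.73 ± 0.15), and H2-Eb1 and H2-Aa rose by 0.68 ± 0.14 and 0.69 ± 0.15, all with overlap, and 2 months replicate 5 was the highest of its age in each. The transactivator Ciita, below 1 CPM in every library, changed by 0.62 ± 0.23 and did not pass (adjusted p = 0.051).

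Lymphocyte genes were at low levels. Of 8 tested T and NK cell genes 4 rose, with a median of 0.40, and 2 without the red cell or the Gabra6 libraries. Cd8a, of cytotoxic T cells, had 0, 0.0922 and 0.356 CPM at 2 months and 0.282, 0.443 and 1.01 CPM at 24 months (2.03 ± 0.34), and the chemokine Ccl5 rose by 1.40 ± 0.33. Of 7 B and plasma cell genes 3 rose, or 1 without 24 months replicate 10. Igkc, the kappa constant region, went from a median of 0.785 to 1.87 CPM (2.38 ± 0.52) and reached 21.5 CPM in 24 months replicate 1, without which its change was 1.65. Cd79b, of the B cell receptor, no longer passed without that library (0.94, adjusted p = 0.065), and Blnk, at 0.22 ± 0.08, passed only narrowly (adjusted p = 0.037).

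Neutrophil genes differed mainly by library. Of 20 listed genes 9 had counts enough to be tested and 7 rose, with a median of 3.53. S100a8, a calcium-binding alarmin, had 0.155, 0.553 and 8.07 CPM at 2 months and 0.888, 2.47 and 138 CPM at 24 months. It rose by 3.64 ± 0.97, but without 24 months replicate 1 the change was 1.11 (adjusted p = 0.14), 3 of the listed genes rose and the median of the list was 0.58. When 2 months replicate 5, the highest of its age, was left out as well, S100a8 passed again (2.51, adjusted p = 6.1e-06). Csf3r, the receptor of granulocyte colony-stimulating factor, rose by 0.50 ± 0.08 with no overlap between ages and by 0.43 without replicate 1. Red cell genes rose in 5 of 6 tested members. Hba-a2 and Hbb-bt, globin genes with near-identical copies, rose by 1.54 ± 0.45 and 1.39 ± 0.40, but without 4 libraries high in red cell genes their changes were 0.41 and 0.31 and did not pass, and 1 of the 6 rose. Without 24 months replicate 3 alone, 3 rose.

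For genes of dividing cells a single library decided the result. With all 20 libraries 1 of 29 tested cell cycle genes rose, Pcna (0.10 ± 0.03), and 1 fell, the mitotic kinase Pbk (-1.09 ± 0.31), with a median of -0.01. The summed level of the list was 122, 128 and 149 CPM at 2 months, and 116, 125 and 237 CPM at 24 months, where 237 CPM was that of replicate 1. Without that library 14 of the 29 fell and the median was -0.24. The proliferation marker Mki67 had 1.34, 1.68 and 3.58 CPM at 2 months, and at 24 months 23.1 CPM in replicate 1 and 0.523 to 1.19 CPM in all others, so that its change went from 0.74 ± 0.61 (adjusted p = 0.41) to -1.13 (adjusted p = 5.9e-05). Top2a, the topoisomerase of dividing cells, went in the same way from -0.22 ± 0.47 to -1.37, and Ccnb1, Cenpf, Cdk1 and Kif11 to -1.35, -1.16, -0.93 and -0.69. The licensing genes Mcm2, Mcm3, Mcm4, Mcm6 and Mcm7 lay between -0.05 and 0.08 without replicate 1 and did not pass, while Mcm5, of the same complex, fell (-0.24, adjusted p = 0.011).

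Genes of developing neurons fell in 16 of 32 tested members, and none rose by this test, with a median of -0.20. Marcksl1, an actin-binding protein of growing neurites (chromosome 4, 129513581 to 129515985), had 71.4, 77.0 and 85.8 CPM at 2 months and 39.6, 48.6 and 55.0 CPM at 24 months (-0.65 ± 0.05), and Dpysl3, a growth cone protein, 59.8, 63.5 and 71.5 CPM against 44.8, 47.0 and 52.0 CPM (-0.44 ± 0.04). Neither overlapped. The transcription factors Sox4 and Sox11 fell by 0.68 ± 0.08 and 0.56 ± 0.09 and the axon guidance gene Draxin by 0.71 ± 0.14. Dcx, the classic marker of immature neurons, changed by -0.24 ± 0.10 and did not pass (adjusted p = 0.071), with 36.4, 41.7 and 54.0 CPM against 26.2, 35.6 and 48.6 CPM. Leaving out any 1 library left 15 to 17 falls.

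In the oligodendrocyte lineage, 9 of 24 genes of precursors and of cells entering myelination fell and 3 rose, with a median of -0.10. Of all genes 12.2% fell and 12.9% rose, so the share of rises was near that of all genes. After Gpr17 came Neu4, a sialidase, with 10.7, 12.2 and 14 CPM against 7.52, 8.52 and 9.65 CPM (-0.52 ± 0.06), and Cacng4, an AMPA receptor subunit, with 46.7, 50.8 and 53.6 CPM against 40.7, 43.5 and 45.4 CPM (-0.22 ± 0.03), neither of which overlapped. Pdgfra, which marks the precursors themselves, changed by -0.06 ± 0.05 and did not pass, and Bcas1, of early myelinating cells, rose by 0.26 ± 0.06. Genes of myelin and mature oligodendrocytes were divided, with 12 of 30 higher and 7 lower. Among structural proteins of myelin, Mbp rose by 0.21 ± 0.05 (medians of 2487 and 2747 CPM), whereas Mog fell by 0.21 ± 0.07. Anln, a septin-binding scaffold of myelin, rose from 32.6, 40.8 and 45.9 CPM to 57.5, 62.2 and 69.1 CPM (0.64 ± 0.05), Hapln2, which sits at nodes of Ranvier, by 0.67 ± 0.07, the alarmin Il33 by 0.60 ± 0.06 and the lipocalin Apod by 0.91 ± 0.11, all 4 without overlap. Fa2h, which makes the hydroxylated lipids of myelin, fell by 0.26 ± 0.05.

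Genes of the extracellular matrix and meninges fell in 8 and rose in 4 of 34 tested members, or fell in 5 and rose in 3 without 2 months replicate 4 or 5. Of all genes 12.2% fell and 12.9% rose, so the share of rises was near that of all genes. Col3a1 led, with 6.26, 8.33 and 11.5 CPM at 2 months and 3.17, 3.97 and 4.80 CPM at 24 months. Nid1, of basement membranes, fell by 0.42 ± 0.07 and Serpinh1, a collagen chaperone, by 0.41 ± 0.14, while the collagen VI genes Col6a1 and Col6a2 rose by 0.32 ± 0.06 and 0.35 ± 0.06 and Sparc, a matrix glycoprotein, by 0.21 ± 0.06. Col1a1 had 13.7, 19.2 and 56.4 CPM at 2 months and 10.6, 13.0 and 64.1 CPM at 24 months, and its highest values at each age were those of the libraries highest in neutrophil genes. It did not pass with all libraries (-0.33 ± 0.31, adjusted p = 0.46) and passed without those 2 (-0.55, adjusted p = 3.4e-05).

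Of 24 endothelial genes 6 rose and 5 fell, against 12.9% and 12.2% of all genes. Vwf, the platelet-binding multimer, rose from 16.5, 20.2 and 25.3 CPM to 28.2, 38.7 and 80.6 CPM (1.08 ± 0.17) and the adhesion receptor Icam1 from a median of 2.94 to 5.03 CPM (0.81 ± 0.10), neither with overlap. The membrane protein Itm2a fell by 0.46 ± 0.07 and Mfsd2a, the lipid transporter of the blood-brain barrier, by 0.38 ± 0.10, and Cldn5, its tight junction protein, changed by -0.10 ± 0.08. None of 15 pericyte and smooth muscle genes rose and 2 fell, Rgs5 (-0.21 ± 0.05) and Kcnj8 (-0.22 ± 0.07), the latter not without 5 of the libraries, each left out alone. This is a share near the 12.2% of all genes. Of 20 choroid plexus genes 7 fell, against 12.2% of all genes. Among them were the folate receptor Folr1 (-0.46 ± 0.08), the channel subunit Kcne2 (-0.66 ± 0.12, no overlap), Kl, which codes for klotho (-0.29 ± 0.06), and 1500015O10Rik (-0.44 ± 0.07). Ttr, the most abundant product of the choroid plexus, was at medians of 804 and 779 CPM (-0.05 ± 0.06).

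Synaptic genes showed many small falls. Of 45 tested members 20 fell and none rose by this test, with a median of -0.07, and the falls ran from 0.06 to 0.49. Dlg4, the postsynaptic scaffold PSD-95, had 609, 665 and 709 CPM against 507, 554 and 609 CPM (-0.23 ± 0.03), Unc13a, which primes vesicles, 386, 415 and 447 CPM against 311, 355 and 376 CPM (-0.25 ± 0.03) and Stx1a, a vesicle fusion protein, 201, 226 and 238 CPM against 165, 185 and 206 CPM (-0.27 ± 0.04). Only Unc13a of the 45 had ages without overlap, a share near the 2.27% of all genes. Homer1, whose short form is induced by activity, fell most (-0.49 ± 0.15), Camk2a by 0.11 ± 0.03 and the neuropeptide Cck by 0.30 ± 0.07, and Gad1, of inhibitory neurons, changed by 0.08 ± 0.05. Without the 4 libraries highest in Gabra6, and likewise without 4 libraries high in red cell genes, 9 of the 45 fell.

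Immediate early genes, transcribed within minutes of neuronal activity, fell in 12 of 29 members, and 28 of the 29 changes lay below 0, with a median of -0.29. Nr4a2 had 33.3, 40.6 and 51.2 CPM against 27.4, 30.8 and 36.7 CPM (-0.46 ± 0.07), Nr4a3 fell by 0.63 ± 0.17, Egr4 by 0.61 ± 0.16 and Egr1 by 0.50 ± 0.17. The widely used markers Fos (-0.69 ± 0.27, adjusted p = 0.064) and Arc (-0.56 ± 0.29, adjusted p = 0.17) varied more between mice and did not pass. The count was sensitive to the libraries used, with 5 to 18 falls when any 1 was left out, 6 without 24 months replicate 1 and 1 with the neutrophil covariate. The 5 falls were those without 24 months replicate 2 or 10 and the 18 those without 24 months replicate 8, and without 2 months replicate 7 or 8 there were 7 or 6. Of 15 genes of the striatum 9 fell and 1, the opioid precursor Pdyn (0.13 ± 0.04), rose. Syndig1l had 37.4, 39.0 and 42.8 CPM against 28.0, 32.0 and 34.8 CPM (-0.30 ± 0.03), without overlap, and the receptors Adora2a, Drd1 and Drd2 fell by 0.32, 0.14 and 0.15. The summed level of this list was 1543, 1682 and 1796 CPM at 2 months and 1390, 1498 and 1567 CPM at 24 months. Without the 4 libraries highest in Gabra6 5 striatal genes fell. Whether striatum made up a smaller share of the dissected hemispheres at 24 months was not tested.

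Of 32 heat shock and chaperone genes 11 fell and 1, Hspa2 (0.17 ± 0.04), rose. Dnajb5 fell by 0.45 ± 0.09, Hsph1 by 0.32 ± 0.08, the HSP90 activator Ahsa1 by 0.21 ± 0.05, the abundant Hspa8 by 0.18 ± 0.06 and Hsp90aa1 by 0.16 ± 0.04, and all overlapped between ages. The stress-induced Hspa5 of the endoplasmic reticulum changed by -0.13 ± 0.13. Without 4 libraries high in red cell genes 1 of these 32 genes fell, and 6 fell without 24 months replicate 6 or 10, 16 without 24 months replicate 7 and 7 without any of 2 months replicates 3, 4, 5 and 7 and 24 months replicates 1, 2, 3 and 9.

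Of 14 cerebellar genes 3 rose, against 12.9% of all genes, and 1 rose without the 4 libraries highest in Gabra6. The 3 were Pvalb, a calcium buffer of inhibitory neurons (0.32 ± 0.06), Cbln3 and the transcription factor En2 (0.51 ± 0.18). Of 12 hypothalamic genes Agrp, the appetite-stimulating neuropeptide, rose (1.45 ± 0.39, medians of 0.302 and 0.623 CPM) and Hcrt, the precursor of orexin, fell (-0.35 ± 0.08, medians of 6.99 and 5.17 CPM), both with overlap. With 1 of 12 in each direction, this list lay below the 12.9% and 12.2% of all genes. The 3 pituitary and pineal genes with counts enough to be tested, Pomc, Aanat and Tph1, did not pass.

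The clustered protocadherins, adhesion proteins whose random choice gives each neuron an identity, held 3 of the 10 protein-coding genes with the smallest p, Pcdhb9, Pcdhga6 and Pcdhga2. They lie in a row on chromosome 18, and of 56 tested members 24 rose and 5 fell, against 12.9% and 12.2% of all genes. Pcdhb9 (37400855 to 37403909), with the smallest p of all genes named here, had 9.46, 10.4 and 11.3 CPM at 2 months and 18.8, 20 and 22.6 CPM at 24 months (0.95 ± 0.04, adjusted p = 4.5e-14). Pcdhb2 rose by 1.17 ± 0.08, Pcdhga2 by 0.79 ± 0.05, Pcdhga6 by 0.71 ± 0.04 and Pcdhb1, the first of its cluster, by 1.54 ± 0.21. The ages did not overlap for 14 of the 56, against 2.27% of all genes. The falls were 3 without 2 months replicate 7 or 8 or 24 months replicate 3, and 1 without the red cell or Gabra6 libraries. Among those that fell were Pcdhgc5, a C-type isoform (-0.32 ± 0.05), and Pcdha6 (-0.43 ± 0.12). The gamma genes share their last exons, so that reads there fit several gene models and may not have been counted. Apart from C4b, AC149090.1, Met, Mpeg1 and Ly9, given with their groups, the other genes of the 10 were Abca8a, a lipid transporter, with 7.88, 9.46 and 13.9 CPM against 22.2, 24.4 and 28.6 CPM (1.36 ± 0.08), and Zfp57, a zinc finger protein that maintains imprinted methylation, with 13.8, 14.4 and 15.6 CPM against 7.84, 9.14 and 10.1 CPM (-0.68 ± 0.04).

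Ribosomal protein and respiratory chain genes had small median changes. Of 82 ribosomal protein genes 30 rose and 1 fell, against 12.9% and 12.2% of all genes. Their median change was 0.08, 75 of the 82 changes lay above 0, and the ages overlapped for every gene. Rpl21, Rps15a and Rpl14 rose by 0.14, 0.12 and 0.16. With library totals 40 rose, and without 4 libraries high in red cell genes 5 rose. Of 83 nuclear genes of the respiratory chain 6 rose and 2 fell, fewer in both directions than among all genes, but only 2 rose without 2 months replicate 4, 5 or 7 or 24 months replicate 3 and 3 without 2 months replicate 3 or 9 or 24 months replicate 2, 5 or 8. None of the 13 mitochondrial ones passed, although mt-Nd4 and mt-Nd2 fell when 24 months replicate 1 was left out. Cox8b, a subunit of complex IV that is best known from muscle, stood out with 0.0930, 0.235 and 0.349 CPM against 0.579, 0.687 and 0.954 CPM (1.64 ± 0.17, no overlap). Sdha, of complex II, rose by 0.09 ± 0.02, also without overlap, and Atp5d fell by 0.15 ± 0.04.

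Among 60 genes of nucleotide metabolism and transport 13 rose and 9 fell, against 12.9% and 12.2% of all genes, with a median of 0.01. Without 4 libraries high in red cell genes 4 rose and 7 fell, and without the 4 highest in Gabra6 7 rose and 7 fell. Slc29a4, a transporter of nucleosides and monoamines, fell from 18.1, 19.5 and 21.4 CPM to 13.3, 15.6 and 17.3 CPM (-0.34 ± 0.04) and Ctps, which makes CTP, from 44.9, 46.6 and 50.8 CPM to 38.9, 41.3 and 44.6 CPM (-0.19 ± 0.03), both without overlap. Uck2, a uridine-cytidine kinase, fell by 0.29 ± 0.05, while the catabolic enzymes Xdh (xanthine dehydrogenase) and Dpyd rose by 0.88 ± 0.13 and 0.42 ± 0.07. Of 52 genes of sphingolipid metabolism 7 rose and 7 fell, shares close to the 12.9% and 12.2% of all genes, and without the red cell libraries 4 rose and 2 fell. The ceramidases Asah2 and Acer2 rose by 0.37 ± 0.05 and 0.45 ± 0.12 and Galc, which degrades galactosylceramide, by 0.15 ± 0.04, and the ceramide synthase Cers1 fell by 0.16 ± 0.04.

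Of 26 genes of cholesterol synthesis and uptake 7 rose and 1 fell, against 12.9% and 12.2% of all genes. The list as a whole was not shifted upwards, with a median change of -0.007, 11 changes above 0 and 15 below 0. Stard4, a sterol carrier, rose by 0.26 ± 0.05 and Fdft1 and Lss, which act between farnesyl diphosphate and lanosterol, by 0.19 ± 0.04 and 0.21 ± 0.05. Of 21 clock genes 5 rose and 4 fell, against 12.9% and 12.2% of all genes. Bhlhe41, a repressor of the clock, rose by 0.42 ± 0.06, Per3 by 0.22 ± 0.05 and Nr1d1 by 0.26 ± 0.07, and the activator Arntl (BMAL1) fell by 0.25 ± 0.05. The mice were killed in cohorts randomized by age on consecutive mornings, and no source used here gives the day or hour for each mouse. Without 4 libraries high in red cell genes 5 clock genes rose and 2 fell. Of 20 genes of p53 and cell cycle arrest 2 rose, among them the death receptor Eda2r (0.99 ± 0.18), and 5 fell, among them Zmat3 (-0.16 ± 0.04) and the cell cycle inhibitor Cdkn1a (-0.48 ± 0.14). The share of rises lay below the 12.9% of all genes. Without the red cell libraries 1 rose and 1 fell, and without 2 months replicate 5 or 24 months replicate 2 alone 4 rose and 4 fell, or 2 rose and 3 fell.

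Of the 189 named genes that passed, 172 did so whichever single library was left out. The other calls were lost in 1 to 15 of the 20 such fits, without a change of direction (that of S100a8 only without 24 months replicate 1), with adjusted p reaching 0.067 for Blnk, 0.062 for Calr, 0.065 for Cd79b, 0.091 for Crb1, 0.074 for Egr1 and En2, 0.086 for Gsn, 0.052 for Hba-a2, 0.069 for Hspa8, 0.059 for Kcnj8, 0.061 for Mog, 0.084 for Pdyn, 0.068 for Serpinh1 and 0.14 for S100a8, beside the list members Bmp4 (0.081), Npas4 (0.097) and Per1 (0.11).

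The changes were set beside those between 30 and 9 months in Run 1, in which 10 libraries of 30 months and 8 of 9 months share no library with the 20 above. There 1031 of 17928 genes tested passed (5.75%), 701 higher (3.91%) and 330 lower (1.84%) at 30 months. Of the 17711 genes tested in both comparisons, 4483 were called at 24 against 2 months and 1013 at 30 against 9 months. Called in both and in the same direction were 833, which is 18.6% of the former and 82.2% of the latter, and 1 gene was called in opposite directions, Gsn, which codes for the actin-severing protein gelsolin (-0.12 ± 0.04 and 0.26). Of the 2306 genes that rose at 24 months 93.4% had a change above 0 in Run 1, where their median change was 0.16 against 0.30, and of the 2177 that fell 90.8% had a change below 0 there, with medians of -0.09 and -0.16. These genes were chosen by their values in Run 2, which can enlarge their medians there but not in Run 1. The matching shares of all tested genes are not given here.

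**Figure D4:**
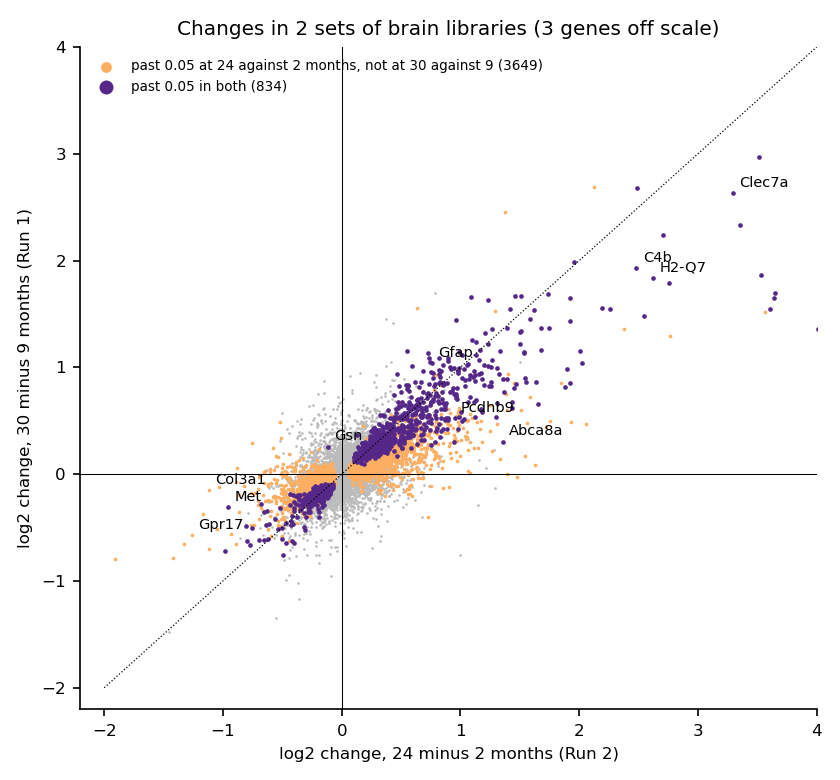
Each point is a gene, with its log2 change at 24 against 2 months in Run 2 on the x axis and at 30 against 9 months in Run 1 on the y axis; orange genes passed only in the former and purple genes in both, and 3 genes lie off the scale. C4b, H2-Q7 and Clec7a lie high on both axes, Gpr17, Col3a1 and Met lie far from 0 mainly on the x axis, and Gsn is the gene called in opposite directions.

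In Run 1 fewer genes were called, so counts there are to be read beside its 3.91% higher and 1.84% lower of all genes. Interferon response genes rose there in 35 of 46, class I genes in 15 of 21 with 2 falls, activated microglial genes in 27 of 33 and reactive astrocyte genes in 10 of 21. Class II genes rose in only 1 of 10, with a median of 0.40 against 0.65 in Run 2. Clustered protocadherins rose in 13 of 56 and none fell, with a median of 0.03 against 0.15 in Run 2. C4b rose by 1.93, H2-Q7 by 1.83, Clec7a by 2.63 and Gfap by 1.04. Neurogenesis genes fell there in 3 of 31, synaptic genes in 3 of 45, striatal genes in 1 of 15 and immediate early genes in 1 of 29. The median change of the synaptic list was -0.07 in both comparisons and that of the immediate early list -0.25 against -0.29 in Run 2, while those of the neurogenesis and striatal lists were -0.08 and -0.01 against -0.20 and -0.14. Col3a1 (-0.15, adjusted p = 0.40), Marcksl1 (-0.09, adjusted p = 0.37) and Rnf122 (-0.03, adjusted p = 0.92) did not pass, nor did Gpr17 (-0.57, adjusted p = 0.053), and Met fell by 0.31. Heat shock and chaperone genes fell in 11 of 32 in both comparisons, and ribosomal protein genes rose in 1 of 82, with a median of 0.08 in both. These 2 comparisons differ in age span, group size and run, and whether a change differs between them was not tested.

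Run 2 also held 2 libraries of 9 months and 2 of 30 months, which are given as values. C4b was at 46.3 and 43.8 CPM at 9 months and 155 and 193 CPM at 30 months, so that 9 months lay above all libraries of 2 months and below all of 24 months. The same order was seen for Clec7a (0.744 and 0.582, then 3.11 and 4.21 CPM) and Pcdhb9 (13.7 and 16.1, then 19.7 and 21.6 CPM). Gfap, at 236 and 199 CPM, was in or just above the range of 2 months at 9 months and at 407 and 445 CPM at 30 months. Col3a1 was already at 3.94 and 3.05 CPM at 9 months, within or below the range of 24 months, with 4.50 and 3.13 CPM at 30 months. Abca8a was at 19.7 CPM in both libraries of 9 months, above all libraries of 2 months and below all of 24 months. Marcksl1 (57.0 and 58.2 CPM), Gpr17 (40.1 and 36.0 CPM) and Met (3.59 and 5.35 CPM) were below every library of 2 months at 9 months.

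**Figure D5:**
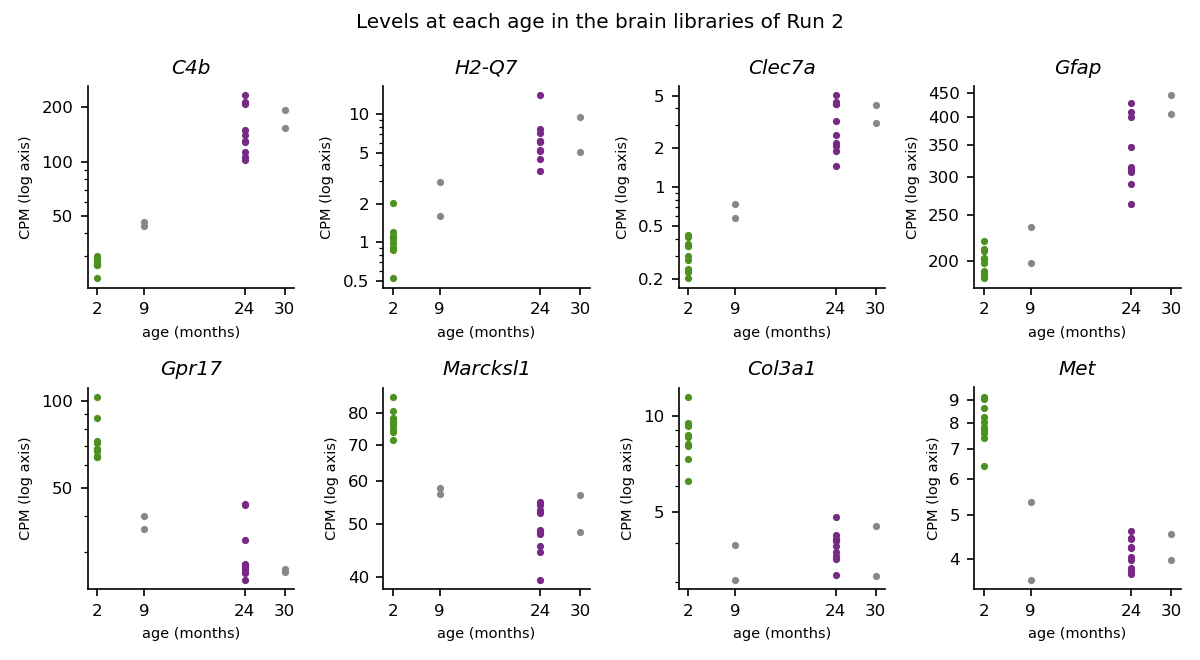
CPM (log axis) of 8 genes in the brain libraries of Run 2 against age in months, with 10 libraries each at 2 months (green) and 24 months (purple) and 2 each at 9 and 30 months (grey). C4b and Clec7a at 9 months lie between 2 and 24 months, whereas Col3a1 at 9 months is at 3.05 and 3.94 CPM, in or below the range of 24 months.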

How the data were processed

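Brain RNA of 10 mice of 24 months and 10 of 2 months was compared; libraries were grouped by their labels. The authors deposited raw counts of reads per gene for 55471 Ensembl identifiers, with no normalization, from stranded libraries of polyadenylated RNA read for 75 cycles from both ends. The submitters' processing notes list cutadapt 1.12, HISAT2 2.1.0, SAMtools 1.9 and HTSeq 0.6.1 with GRCm38.p6 and mm10; the annotation and strand setting of the counting are named by no source used here. GENCODE M21 (GRCm38) held 55230 of the identifiers and gives symbols and coordinates; unmatched ones keep their identifier. The number of sample columns left unmapped was 0.

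The test was the quasi-likelihood test of edgeR 4.0.16 (R 4.3.3) with TMM factors, on genes kept by filterByExpr (minimum count 10, total 15, proportion 0.7), with Benjamini-Hochberg adjustment over all genes and a threshold of 0.05. No batch term was used, since the 20 libraries are of 1 run. Printed CPM were scaled by TMM over all 52 brain libraries. Alternatives were DESeq2 1.42.0, other scalings, no filter, all 52 libraries with the run as a term, a neutrophil covariate, a replicate block and leaving out each library; leaving out groups of libraries high in neutrophil, red cell or cerebellar genes was added after seeing the data. Tested on simulated data for this comparison (17843 genes), edgeR recovered 78% of genes changed by 0.5 and 96% of those changed by 1 on the log2 scale, with 3.33% unchanged genes among its calls. For DESeq2 these values were 81%, 95% and 9.28%. Only 200 genes were changed, 100 by each size. Changes below 0.5 were not simulated, so recovery of changes near the median size of 0.21 among the called genes was not tested.

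Lists, members and tests were chosen with earlier results of these data known. Named genes are the 10 largest rises and 10 largest falls of protein-coding genes with a mean log2 CPM of at least 1 that were also called without 24 months replicate 1 (gene models Gm and Rik and immunoglobulin and T cell receptor segments left out), the 10 smallest p, 3 members of each list with the smallest p, the gene called in opposite directions, Nnt, Crb1, Xist, Ddx3y, Snap25, Alb and Muc2, and other members of the lists. Replicates are separate mice. Figures were drawn with Python 3.11.15 and matplotlib 3.10.9. The colon, the liver and the other data of the study were not used here. Some members of the lists count in the totals but are not reported here by name.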

Additional observations from a re-analysis of the deposited data

Results flagged for a closer look

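In each group of 10 libraries, a named gene is listed here where the highest or lowest library lay apart from its nearest neighbour by a share of the group's range above Dixon's critical value for 10 values; chance puts about 1 in 20 groups on such a list, and 58 of 444 groups were on it. Of these values 19 were of 2 months replicate 5, 11 of 24 months replicate 1 and 11 of 24 months replicate 10, the libraries described in the report as high in neutrophil, red cell, cerebellar or interferon genes.

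In 2 months replicate 5, the highest values were those of Csf1r (119 CPM), Col1a1 (56.4), Hbb-bt (21.9), Cd74 (18.4), H2-Aa (10.1), Blnk (9.49), Alas2 (8.48), H2-Eb1 (8.18), S100a8 (8.07), Itgb2 (7.88), Mki67 (3.58), Top2a (3.31), Lgals3 (2.43), Cybb (2.05), Igkc (2.02), Zbp1 (0.957) and Cd8a (0.356), while its Il33 (34.9) and Serpina3n (15.1) were the lowest of the age. In 24 months replicate 1, the highest values were those of S100a8 (138 CPM), Col1a1 (64.1), Ltf (59), Hba-a2 (53.3), Mki67 (23.1), Igkc (21.5), Csf3r (15.9), Cybb (12.5), Top2a (10.4), Oas3 (1.93) and Pbk (0.822). In 24 months replicate 10, they were those of H2-K1 (122 CPM), Stat2 (43.6), Gbp4 (32.3), H2-Q6 (24.1), Tap1 (19), H2-Q7 (14.1), Psmb9 (9.13), Nlrc5 (7.43), Muc2 (4.16), Zbp1 (3.47) and Ccl5 (1.88).

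Other libraries stood apart in few genes. At 2 months, replicate 3 was highest in Alb (137 CPM), Rgs5 (99.3), C3 (17), Pcdha6 (3.58) and Tph1 (1.19), replicate 9 was highest in Abca8a (13.9) and lowest in Per3 (41.5), and replicates 8, 10 and 1 were highest in Lss (46.1), Xdh (15) and H2-Q7 (2.02), while replicate 6 was lowest in C4b (22.5). At 24 months, replicate 3 was highest in Rpl14 (236 CPM), Cldn5 (53.7) and Agrp (2.27), replicate 2 in Bmp4, a signal that holds back precursor differentiation (3.96), and Igfbpl1 (1.59), and replicate 8 in 1500015O10Rik (10.3).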

How the results depend on the processing

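The 4509 calls at 24 against 2 months became 4710 with DESeq2, 4488 with RLE factors, 4375 with library totals, 3953 without a filter on low counts and 4167 with all 52 brain libraries and the run as a term. Leaving out single libraries gave 3750 to 5027 calls, 2031 to 2617 higher and 1719 to 2509 lower, with the fewest without 24 months replicate 10. The neutrophil covariate left 2779 (1470 higher, 1309 lower), leaving out 4 libraries high in red cell genes 2256 (1295 and 961), the 4 highest in Gabra6 2910 (1565 and 1345) and the library highest in neutrophil genes at each age 3580; these fits also hold fewer samples or fewer degrees of freedom, and the cause of each loss was not tested. At 30 against 9 months in Run 1, a replicate block gave 350 calls (287 higher, 63 lower), DESeq2 called 537 lower and no filter 200 lower.

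Mki67 (0.74 with all libraries, not called) was -1.05 with DESeq2, which replaces outlying counts, -1.78 with the covariate, -1.13 without 24 months replicate 1, -0.97 without the library highest in neutrophil genes at each age, -1.03 and -1.30 without the red cell and Gabra6 libraries, and 0.90 without 2 months replicate 5. With the replicate number as a block 4562 genes were called at 24 against 2 months, but the numbers did not pair the mice: deviations of same-numbered libraries correlated at -0.330 to 0.241, above 0.1 in 4 of 10 pairs, and 2 of 10 libraries correlated best with their own number. Depth limits the genes below 1 CPM, such as Cst7 or Cd8a at 2 months, whose fold changes rest on few counts.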

Other observations

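Outside the rule for named genes, the largest rise and the largest fall among all called genes were in non-coding transcripts of low level, which, like the protein-coding genes that follow, were chosen after their values were seen. The antisense transcript 9630013A20Rik had 2.05, 3.03 and 4.23 CPM (lowest, median and highest) at 2 months and 0.176, 0.355 and 0.587 CPM at 24 months (-3.16 ± 0.19, adjusted p = 4.4e-11), and it also fell at 30 against 9 months in Run 1 (-1.05, adjusted p = 0.00050). The processed transcript A530053G22Rik went from 0, 0.0632 and 0.224 CPM to 1.08, 1.54 and 2.43 CPM (adjusted p = 4.9e-10). Among protein-coding genes, Aplnr, the receptor of the vascular peptide apelin, had 0.936, 1.27 and 1.64 CPM against 0.202, 0.375 and 0.443 CPM (-1.91 ± 0.16, no overlap) and Pcdh12, an endothelial protocadherin outside the gene clusters, went from a median of 0.858 to 0.222 CPM (-1.42 ± 0.26); their changes in Run 1 were -0.79 and -0.78 and did not pass.

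By the study's methods, the strain lacks the mutations in Nnt and Crb1 that C57BL/6J mice commonly carry. Nnt, which codes for the mitochondrial transhydrogenase, was at 0.132 to 0.535 CPM at 2 months and 0.201 to 0.456 CPM at 24 months in every library (0.18 ± 0.21). Crb1 was at medians of 2.90 and 2.57 CPM (-0.23 ± 0.08, adjusted p = 0.043). Alb, the main protein of liver, was at 0.793 to 137 CPM at 2 months and 2.14 to 40.8 CPM at 24 months (-0.17 ± 0.62), and Muc2, the mucin of the gut, at 0.430 to 4.16 CPM over all libraries (-0.19 ± 0.32).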
